A study of Saccharomyces cerevisiae with 15 samples.

Results

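The comparison described here sets a yeast strain without Spt3 against its wild type (WT), both treated with sulfometuron (SM). It rests on 6 of the 15 libraries of the study, 3 spt3 libraries (replicates 1 to 3) and 3 WT libraries (replicates 1 to 3), and on all 6692 yeast features of the deposited count table, of which 6564 had enough counts to be tested. The libraries were chosen by genotype and treatment alone, so no measured value chose them. WT was BY4741, a haploid MATa laboratory strain with the alleles his3Δ1, leu2Δ, met15Δ and ura3Δ, and the spt3 strain, 4228, carries the same alleles plus spt3Δ::kanMX4. Both grew at 30 °C in SC-Ilv, a synthetic medium without isoleucine and valine, to an OD600 of 0.6 to 0.8, and both received SM at 1 µg/ml for 25 min. The other libraries are WT without SM, the spt8 strain 2666 with SM and the gcn5 strain 7285 with SM, 3 of each. Each genotype is represented by 1 strain, and the sources used here do not say whether the 3 replicates came from separate cultures, so p-values measure the spread between these libraries, which may be technical.

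Spt3 is a subunit of SAGA, a coactivator that yeast gene-specific activators bring to promoters. Together with Spt8 it forms the part of SAGA that contacts the TATA-binding protein TBP, while Gcn5 is the catalytic subunit of the part that acetylates histone tails. TBP delivery is the step from which assembly of the RNA polymerase II machinery starts, and genes with a TATA element are known to lean more on SAGA than genes without one. SM blocks acetolactate synthase, an early enzyme of branched-chain amino acid synthesis, and the shortage that follows raises translation of Gcn4, the activator of amino acid synthesis genes. In yeast, stored carbohydrate and stress genes are driven largely by the activators Msn2 and Msn4 through the stress response element, and genes for building ribosomes carry the PAC and RRPE elements.

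Total RNA was sequenced after removal of rRNA, and each 1.2 µg of RNA had received the same volume of diluted ERCC spike-in RNAs. Counts were divided by a size factor from the spike-ins, which gives a scaled count, so a level is relative to total RNA and not to a cell, and in these bulk samples fewer cells of a type and less RNA per cell cannot be told apart. A difference is the log2 ratio of spt3 to WT from edgeR's quasi-likelihood model over all 15 libraries, with its standard error (SE), and a gene was called at a Benjamini-Hochberg adjusted p under 0.05 over all 6564 features. Yeast counts ran from 31112363 to 37495166 per WT library and from 41662114 to 42311944 per spt3 library. After spike-in scaling the total was 37851574, 41473604 and 34197640 in WT and 49167307, 34828905 and 37550536 in spt3, so spt3 replicate 1 stood above the other 5. SPT3 itself (YDR392W, chromosome IV) had 986, 1019 and 711 raw counts in WT and 1, 3 and 3 in spt3, which is 0.223% of the WT scaled count (95% exact Poisson interval 0.0897 to 0.460%, counting error only) and an adjusted p of 8.13e-22. LEU2, URA3 and MET17, the gene of the met15 allele, had at most 6 raw counts in each of the 6 libraries, while HIS3, of which the his3Δ1 allele removes only a part, had 6331 to 8991. Of the 8 neighbours of SPT3 that were tested, 5 were called higher, among them SAC7 (log2 0.59) and UBA2 (log2 0.52), and none of the 5 was called without spt3 replicate 1 or without WT replicate 3.

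Without Spt3, 1426 features were higher (21.7% of those tested) and 919 were lower (14%), together 35.7%, and 4219 were not called. Falls were the deeper changes: 369 features fell at least 2-fold (5.62%) against 291 that rose as much (4.43%), and 72 fell at least 4-fold against 9 that rose as much. The median difference over all features was 0.11 on the log2 scale and the quartiles were -0.22 and 0.43. Scaling on the yeast genes instead of the spike-ins moves the median difference down, by 0.10 with TMM and by 0.13 with the median of ratios. Of all calls 60.8% were rises with spike-ins, against 51.9% with TMM (2223 higher, 33.9%, and 2061 lower, 31.4%) and 48.3% with the median of ratios over yeast genes (2073 higher and 2223 lower). No feature was called in opposite directions by spike-ins and TMM, and 1420 rises and all 919 falls were called under both. Leaving out spt3 replicate 1 left 753 rises, and leaving out WT replicate 3 left 851. When each of the 6 libraries was left out in turn, 738 rises and 639 falls were called every time, among them all 72 falls of 4-fold or more.

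**Figure D1:**
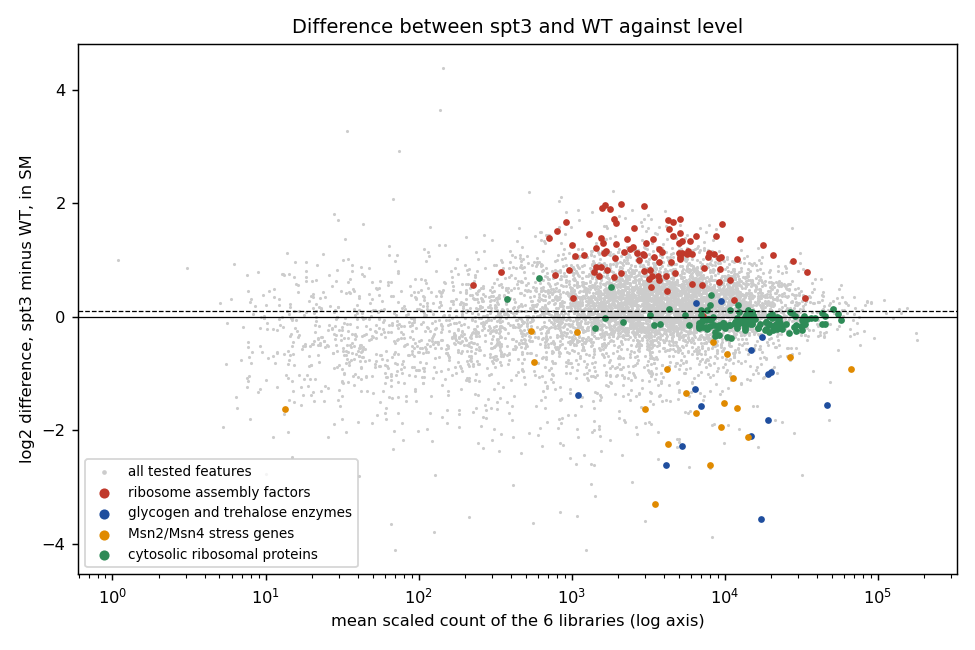
Log2 difference of spt3 minus WT in SM (vertical axis) against the mean scaled count of the 6 libraries (horizontal axis, log scale) for the tested features except SPT3, with 4 gene groups coloured; the solid line is 0 and the dashed line the median of all features, 0.11. Ribosome assembly factors (red) lie above the lines, glycogen and trehalose enzymes (blue) and Msn2/Msn4 stress genes (orange) mostly below, and cytosolic ribosomal proteins (green) near 0 with this spike-in scaling (TMM called 82 of 137 lower).

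Leaving out the deleted SPT3, the deepest fall among well counted genes with a symbol was that of HXK1, which encodes hexokinase 1, an enzyme that phosphorylates glucose and fructose on entry into the cell. Its scaled counts were 14006, 17670 and 14489 in WT and 1119, 843 and 1196 in spt3, a log2 difference of -3.87 (SE 0.22, adjusted p = 3.29e-16). GAC1, the subunit that directs the Glc7 phosphatase to glycogen synthase, read 5659, 6926 and 4179 in WT and 553, 386 and 446 in spt3 (log2 -3.60, SE 0.25, adjusted p = 4.22e-14). GPH1, glycogen phosphorylase, which releases glucose from glycogen, read 29167, 37584 and 28195 in WT and 2804, 2280 and 2956 in spt3 (log2 -3.56, SE 0.22, adjusted p = 1.14e-15). In each of the 3 genes the highest spt3 library lay far below the lowest WT library. The leading falls and rises were picked among genes whose groups do not overlap, so separation itself was fixed by the choice. SOL4, a 6-phosphogluconolactonase of the pentose phosphate pathway, fell by 3.51 on the log2 scale, from 1876, 2239 and 1820 to 127, 147 and 245. EGO4 fell by 3.43, and DDR2, a small protein induced by many stresses, fell by 3.30, from 6149, 6933 and 5866 to 451, 566 and 909. The rest of the 12 largest falls lay between -2.95 and -2.61. They were HAB1, the transketolase isozyme gene TKL2, FMP48, the high-affinity hexose transporter gene HXT7, the starvation-induced repressor gene XBP1 and HSP12, a membrane-bound stress protein. The unnamed row YFR052C-A fell by 4.11, but it overlaps the end of HXK1 on the same strand, so the reads of the 2 cannot be told apart.

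The largest rise among well counted named genes was that of HO, the endonuclease that starts mating-type switching. It read 668, 742 and 554 in WT and 3867, 2639 and 2623 in spt3, a log2 difference of 2.22 (SE 0.22, adjusted p = 2.46e-10). Of the other 11 leading rises, 8 encode factors that build ribosomes. MRD1, needed for cutting the 18S rRNA out of its precursor, read 978, 882 and 683 in WT and 4219, 2959 and 2897 in spt3 (log2 1.99, SE 0.22). LTV1, a factor for export and maturation of the 40S subunit, read 782, 694 and 540 in WT and 3376, 2257 and 2301 in spt3 (log2 1.98, SE 0.22). SPB1, an rRNA methyltransferase of the 60S precursor, read 1402, 1340 and 930 in WT and 6091, 3875 and 4216 in spt3 (log2 1.95, SE 0.23). For all 3 genes the spt3 values lay above all WT values, as the choice of leading genes required, with spt3 replicate 1 the highest each time. UTP14, NOP4, KRI1, SGD1 and ESF1, all nucleolar ribosome assembly genes, rose by 1.92, 1.90, 1.79, 1.78 and 1.73. The 3 leading rises outside that group were BUD27 (1.88), a prefoldin-like protein linked to RNA polymerase assembly, the adenine deaminase gene AAH1 (1.88) and TRF5 (1.84), a poly(A) polymerase that marks nuclear RNA for decay.

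**Figure D2:**
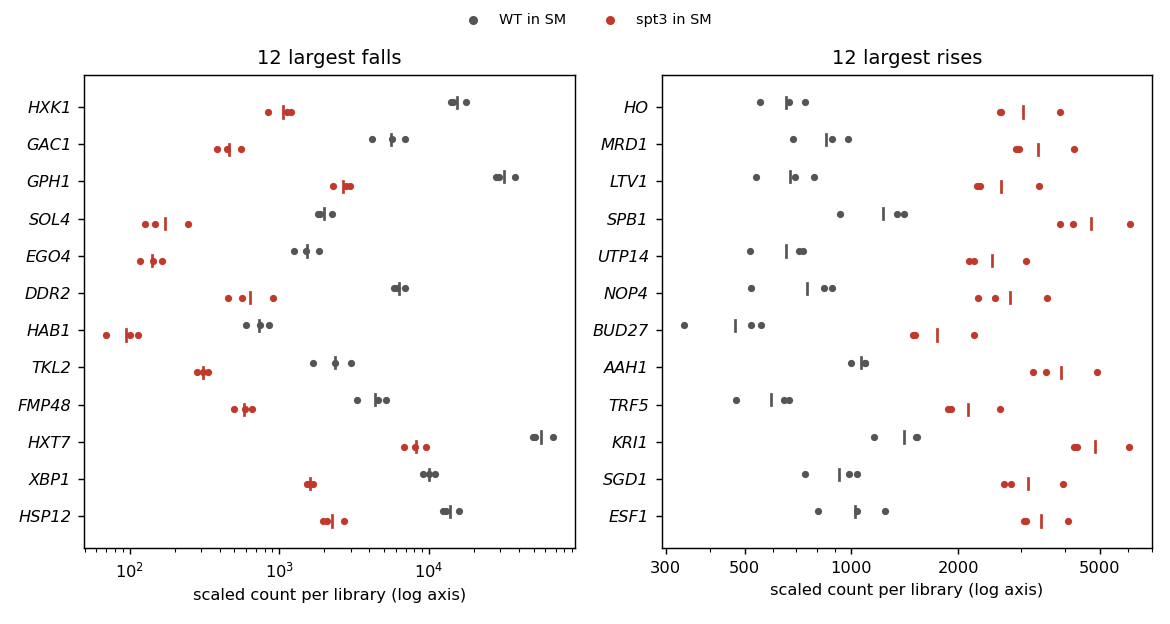
Scaled counts per library (horizontal log axis) of the 12 named genes that fell most (left) and rose most (right) in spt3 against WT, both in SM; each point is a library, grey for WT and red for spt3, and each vertical bar a group mean. The genes were picked among those whose groups do not overlap, so no spt3 point can lie within the WT range. The gap is widest for HXK1.

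Promoter sequences are shown for 3 of the largest falls and 3 of the largest rises, as examples of the elements counted over all promoters. Only genes whose window held an element could be picked, so finding one in each was fixed by the choice. GAC1, GPH1 and HO changed more than some of the genes shown, but this rule left them out. Each is the 150 bases that start 250 bases before the coding start, 5′ to 3′ on the gene's strand, read from the RefSeq R64 genome (sacCer3 coordinates), with element matches in capitals. HXK1 lies at chrVI:255150-255299 on the minus strand, SOL4 at chrVII:985722-985871 on the plus strand and EGO4 at chrXIV:692311-692460 on the plus strand. MRD1 lies at chrXVI:752020-752169 on the minus strand, LTV1 at chrXI:176531-176680 on the plus strand and SPB1 at chrIII:31199-31348 on the plus strand.
HXK1: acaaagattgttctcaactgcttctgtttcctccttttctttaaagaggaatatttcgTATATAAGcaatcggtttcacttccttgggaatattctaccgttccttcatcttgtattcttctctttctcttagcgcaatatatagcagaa
SOL4: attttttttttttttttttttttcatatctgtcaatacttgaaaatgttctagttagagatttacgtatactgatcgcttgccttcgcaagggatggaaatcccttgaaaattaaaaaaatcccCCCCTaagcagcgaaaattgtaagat
EGO4: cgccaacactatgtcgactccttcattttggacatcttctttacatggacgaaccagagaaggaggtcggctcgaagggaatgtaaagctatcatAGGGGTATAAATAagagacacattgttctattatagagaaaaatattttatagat
MRD1: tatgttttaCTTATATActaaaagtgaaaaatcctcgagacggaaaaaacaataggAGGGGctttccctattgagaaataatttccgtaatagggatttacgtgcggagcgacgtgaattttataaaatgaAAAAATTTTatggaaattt
LTV1: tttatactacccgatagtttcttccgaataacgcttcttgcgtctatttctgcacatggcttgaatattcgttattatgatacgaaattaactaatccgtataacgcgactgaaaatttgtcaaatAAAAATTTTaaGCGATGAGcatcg
SPB1: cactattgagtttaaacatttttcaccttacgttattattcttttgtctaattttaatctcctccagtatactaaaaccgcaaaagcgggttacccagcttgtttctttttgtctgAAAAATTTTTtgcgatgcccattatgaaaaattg
The capitals in HXK1 are a TATA element. SOL4 has a stress response element read on the other strand. EGO4 has a stress response element with a TATA element directly after it. LTV1 has an RRPE element followed after 2 bases by a PAC element, SPB1 has a pair of overlapping RRPE matches, and MRD1 has a TATA element on the other strand, a stress response element and an RRPE element. A match describes the letters and not a bound site.

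Over all promoters, the share with each element differed between rises and falls, which is a description with no test. The 250 bases before each coding start were searched on both strands for TATA elements (TATAAAAA, TATAAAAG, TATAAATA, TATAAATG, TATATAAA, TATATAAG, TATATATA or TATATATG), the stress response element AGGGG, the PAC element GCGATGAG, the RRPE element AAAAATTTT and the Gcn4 site TGACTCA. Of 6541 nuclear windows of tested features, 35.0% held a TATA element. The share was 30.8% among higher calls, 33.3% among features not called and 49.2% among lower calls, and it was 63.9% (46 of 72) among falls of 4-fold or more. Between 200 and 50 bases before the start alone, the shares were 25.3% of all, 19.8% of higher calls and 58.3% of the falls of 4-fold or more. AGGGG was in 18.5% of all windows, in 11.7% of higher calls, in 34.8% of lower calls and in 43.1% of falls of 4-fold or more. The PAC element ran the other way. It was in 3.58% of all windows, in 171 of the 1426 windows of higher calls, in 27.5% of rises of 2-fold or more and in 0.435% of lower calls. Read from the element, 73.1% of the 234 tested genes with a PAC element were higher and 4 genes were lower. For RRPE, 204 of 406 genes (50.2%) were higher and 17 were lower. The Gcn4 site was in 2.23% of all windows, 1.68% of higher calls and 2.83% of lower calls. Mean AT content of the windows was 64.9% for higher calls and 63.8% for lower calls. Coding length differed more, with a median of 1579.5 bases for higher calls and 810 for lower calls, against 1101 for all; its part in the calls was not tested.

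**Figure D3:**
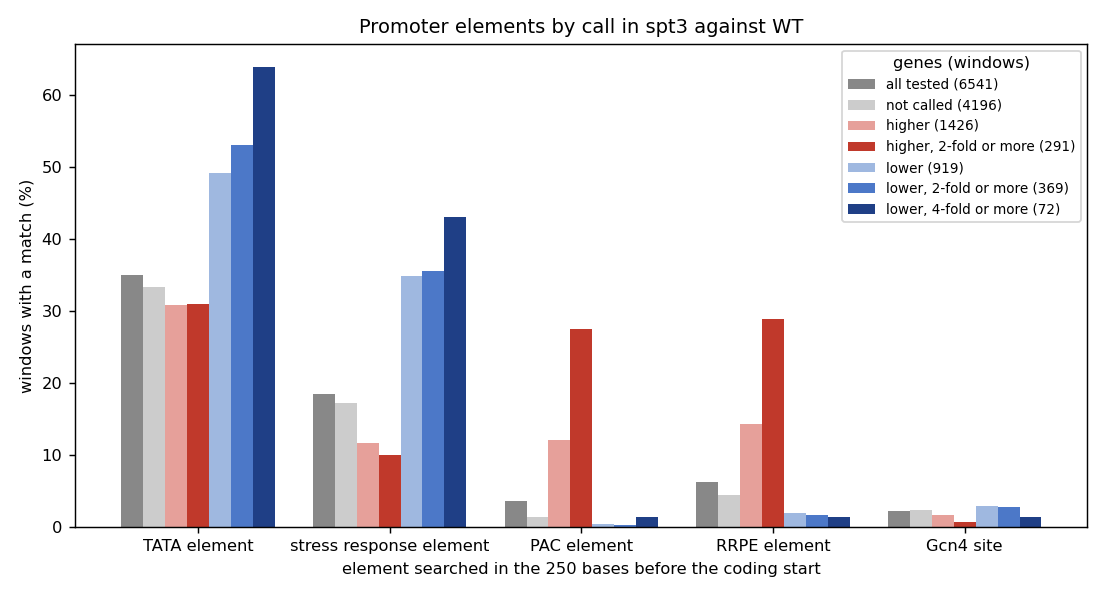
Share of promoter windows (percent, vertical axis from 0) that hold each of 5 elements, by call in spt3 against WT in SM; bars are gene groups, with the number of windows in the legend, and a gene can be in more than 1 group. TATA and stress response elements are most frequent among falls of 4-fold or more, at 63.9% and 43.1%, and PAC and RRPE elements among rises of 2-fold or more, at 27.5% and 28.9%.

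Glycogen genes were among the most lowered of the storage carbohydrate groups. Of 5 glycogen synthesis genes 4 fell, with a list median of -1.57 on the log2 scale against 0.11 for all features. GSY1, a glycogen synthase, read 6488, 7853 and 6778 in WT and 1021, 969 and 1476 in spt3 (log2 -2.61, SE 0.21, adjusted p = 1.09e-12). The second synthase gene GSY2 fell by 1.82, from 28153, 33644 and 27714 to 9246, 7120 and 9063. GLC3, the branching enzyme, fell by 1.57, and GLG1, a glycogenin that primes new chains, fell by 1.27. The second glycogenin gene, GLG2, was the exception at 0.27 and was not called. All 3 breakdown genes fell too: GPH1, the debranching enzyme gene GDB1 (-2.10) and the sporulation glucoamylase gene SGA1 (-1.38). Among 9 regulators of glycogen metabolism 3 fell (5 with TMM) and none rose. These were GAC1 and GIP2 (-1.15) and PIG1 (-0.87), which all encode regulatory subunits or partners of the Glc7 phosphatase. The 4, 3 and 3 falls of the 3 lists were called in each of the 6 leave-one-out fits.

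Genes for trehalose, the other storage sugar of yeast, followed with smaller falls. Of 7 synthesis genes 5 fell and none rose, with a list median of -0.98. PGM2, the major phosphoglucomutase, which feeds both glycogen and trehalose synthesis, read 7842, 10017 and 8244 in WT and 1927, 1473 and 1985 in spt3 (log2 -2.28, SE 0.20). TSL1, a regulatory subunit of the trehalose synthase complex, read 66362, 78197 and 64440 in WT and 25083, 19222 and 26551 in spt3 (log2 -1.56, SE 0.18). The catalytic subunits fell less, TPS2 by 1.01 and TPS1 by 0.59, and UGP1, which makes the UDP-glucose both sugars need, fell by 0.98. These 5 are the genes called lower, and no library of spt3 reached a WT library in any of them, which adds no test to the calls. Of 3 trehalose breakdown genes (all 3 lower with TMM) ATH1 fell by 0.90, while NTH1 stood at -0.15 and was not called.

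Most genes for entry of sugar and for its first phosphorylation were lower. Of 7 hexose transporters with enough counts 6 fell and none rose (list median -1.23). HXT7 read 51227, 67042 and 49666 in WT and 9590, 6763 and 8054 in spt3 (log2 -2.78, SE 0.20). HXT3, a low-affinity transporter, read 16697, 17269 and 14807 in WT and 4227, 2847 and 3373 in spt3 (log2 -2.22, SE 0.18). HXT5 (-1.78), HXT6 (-1.23), HXT1 (-0.92) and HXT4 (-0.88) also fell. HXT6 and HXT7 are near-identical, so how reads divided between them is uncertain. Of 4 hexose kinases 3 fell, HXK1, the glucokinase gene GLK1 (-2.04, SE 0.17) and EMI2 (-1.21). The other one, HXK2, the main hexokinase in glucose, was 0.09 with spike-ins and -0.02 with TMM and was called in neither, with 16326, 18289 and 16195 in WT and 21536, 15651 and 16820 in spt3. Among 8 glucose sensing and repression genes 5 fell and none rose, led by the transporter repressor gene MTH1 (-2.49) and the repressor gene MIG2 (-1.38), with SUC2, invertase, at -0.81 and the sensor gene SNF3 at -0.64. The last, MIG1 (-0.64), whose groups overlapped, was not called without WT replicate 2, spt3 replicate 2 or spt3 replicate 3. None of 7 galactose genes was called with spike-ins, against 4 lower with TMM, and GAL1 stood at -0.39 (adjusted p = 0.0937).

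In the pentose phosphate pathway 5 of 11 genes fell and 2 rose, and in 2 of 4 isozyme pairs the minor form fell while the major form rose. SOL4 fell while SOL3, the major 6-phosphogluconolactonase, rose by 0.80, from 5698, 6204 and 5676 to 11767, 9273 and 9506. GND2, the minor 6-phosphogluconate dehydrogenase, fell by 2.03 (SE 0.25), and GND1, the major one, rose by 0.58 (SE 0.17). TKL2 and NQM1, the minor transketolase and transaldolase, fell by 2.94 and 1.40, while their major counterparts were not called. ZWF1, glucose-6-phosphate dehydrogenase, the first enzyme of the pathway, fell by 0.70. In glycolysis 1 isozyme family had calls in both directions. TDH1, a glyceraldehyde-3-phosphate dehydrogenase, read 33463, 35985 and 30541 in WT and 10366, 9372 and 8643 in spt3 (log2 -1.82, SE 0.20). TDH2 rose by 0.60, and the last member of that family was not called. In all, 2 of 14 glycolysis genes were called in each direction (4 lower with TMM). That is 14.3% each way with spike-ins, against 21.7% higher and 14% lower of all features. The other fall was PYK2 (-0.65), a minor pyruvate kinase, and the other rise, PGI1 (0.39), was called in 1 of the 6 leave-one-out fits, that without spt3 replicate 2. Of 15 fermentation and acetate genes 4 fell (8 with TMM), ALD4 (-2.16), BDH2 (-1.93), ALD3 (-1.34) and BDH1 (-1.08), which encode aldehyde and butanediol dehydrogenases. With spike-ins the falls were 26.7% of that list, against 14% of all features. ADH4 (0.60) and PDC1 (0.34) were higher, but neither was called without spt3 replicate 1 or without WT replicate 3, and PDC1 kept its call only without spt3 replicate 2.

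Genes that Msn2 and Msn4 drive fell almost without exception. Of 20 such stress genes 18 fell and none rose, with a median of -1.43. Besides DDR2 and HSP12, DCS2, a stress-induced regulator of the scavenger decapping enzyme, read 6555, 8112 and 6261 in WT and 1408, 1314 and 1684 in spt3 (log2 -2.25, SE 0.21). MSC1 fell by 2.12, the cell wall protein gene SPI1 by 1.95 and the carboxypeptidase inhibitor gene TFS1 by 1.69. CTT1, cytosolic catalase, read 17985, 20164 and 15698 in WT and 6216, 5213 and 6318 in spt3 (log2 -1.60, SE 0.20). HSP26, a small heat shock protein, fell by 1.63. A TATA element was in 16 of the 20 promoters (80%) and AGGGG in 14 (70%). MSN4 itself fell by 1.17, from 18622, 20508 and 14002 to 9907, 6192 and 7466, while MSN2 stood at -0.18 and was not called. Of 18 antioxidant enzymes 6 fell and none rose (11 lower and 2 higher with TMM), with the peroxidase genes GPX1 (-1.82) and PRX1 (-1.59) ahead, and 3 fell without WT replicate 2.

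Hsp70 and Hsp40 chaperone genes did not share that pattern. Among 13 Hsp70 and Hsp40 genes 4 were higher (30.8% against 21.7% of all features) and none lower with spike-ins, and 6 higher and 2 lower with TMM. YDJ1, the major cytosolic Hsp40, rose by 1.06 (SE 0.20), from 2833, 2956 and 2334 to 6958, 4918 and 5060. SSA2, KAR2 and SSE1 were each 0.55 higher, but only YDJ1 was called without spt3 replicate 1 or without WT replicate 3. Of 11 further heat shock genes, with 2 calls in each direction (4 in each with TMM), HSP42 (-0.88) and HSP78 (-0.64) fell, HSC82 (0.64), an Hsp90, rose, and HSP60 (0.55) was higher but not called without WT replicate 1, WT replicate 3 or spt3 replicate 1. With spike-ins 18.2% of these 11 were called each way, against 21.7% higher and 14% lower of all features. HSP104, the disaggregase, was -0.21 and not called. Among 32 proteasome genes 4 were higher and none lower with spike-ins, against 8 and 6 with TMM. The share of 12.5% higher was below the 21.7% of all features, and the 4 became 0 without spt3 replicate 1 and 1 without WT replicate 3. Of 37 autophagy genes 7 fell, a share of 18.9% against 14% of all features, and 3 were higher (1 without spt3 replicate 1), whereas 19 were lower and 5 higher with TMM, with ATG39 (-2.22), the receptor for degradation of the nuclear envelope, and ATG34 (-1.28) the largest falls and ATG11 (1.18), a scaffold of selective autophagy, the largest rise.

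Many genes of respiratory metabolism were lower, for regulators and enzymes alike. HAP4, the limiting activator of respiratory genes, read 6334, 7603 and 4775 in WT and 1357, 844 and 1108 in spt3 (log2 -2.50, SE 0.22, adjusted p = 1.83e-11). CAT8, the activator of gluconeogenesis genes, read 2054, 2318 and 1708 in WT and 972, 739 and 710 in spt3 (log2 -1.33, SE 0.22). Of 11 gluconeogenesis and glyoxylate genes 9 fell. FBP1, fructose-1,6-bisphosphatase, read 464, 609 and 420 in WT and 116, 129 and 132 in spt3 (log2 -1.98, SE 0.20). The succinate-fumarate carrier gene SFC1 (-1.38), the malate synthase gene MLS1 (-1.18), the acetyl-CoA synthetase gene ACS1 (-1.12), the lactate transporter gene JEN1 (-1.02) and PCK1 (-1.02), whose product makes phosphoenolpyruvate, also fell. Only ADY2, an acetate transporter gene, was higher in this list (0.70), and not without spt3 replicate 1 or WT replicate 3. In the citrate cycle 10 of 15 genes fell, from SDH1 (-1.15), LSC2 (-1.06) and MDH1 (-1.03) to ACO1 (-0.66), and without WT replicate 2 it was 6. In the respiratory chain 11 of 23 fell and 1 was higher (20 lower and 1 higher with TMM), with QCR10 (-0.88), CYT1 (-0.87) and RIP1 (-0.77) of complex III ahead, and without WT replicate 2 it was 5. None of 8 mitochondrially encoded genes was called with spike-ins, against 5 lower with TMM and 2 lower without spt3 replicate 1, and COX1 was -0.34 (adjusted p = 0.148).

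Genes that build ribosomes rose as a body. Of 48 factors of the small subunit processome and 40S assembly 45 rose and none fell, and of 50 factors of 60S assembly 49 rose and none fell, with medians of 1.07 and 1.13. The counts were 40 to 45 and 47 to 49 when libraries were left out in turn, lowest in both lists without spt3 replicate 1, and 48 and 49 with TMM. In the first list MRD1, LTV1 and UTP14 led, followed by the RNA helicase genes ECM16 (1.72) and DHR2 (1.65), by NOP14 (1.67), RRP12 (1.64) and ENP2 (1.57). In the second, SPB1 and NOP4 were followed by SDA1 (1.73), the helicase genes DRS1 (1.70) and DBP10 (1.55), RPF1 (1.67), RRP14 (1.51) and ERB1 (1.48). A PAC element was in 52.1% of the windows of the first list and 60% of those of the second, and an RRPE element in 60.4% and 68%. TATA elements were in 29.2% and 22%.

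Genes for the polymerases that make rRNA and tRNA moved in the same direction by smaller steps. Of 17 RNA polymerase I genes 12 rose (median 0.57), and 7 without spt3 replicate 1. RPA190, its largest subunit, read 20732, 20944 and 16085 in WT and 55180, 34380 and 37025 in spt3 (log2 1.13, SE 0.20), and RPA34 rose by 1.35. Of 19 RNA polymerase III, TFIIIB and TFIIIC genes 13 rose (median 0.68), led by RPC31 (1.19) and RPC53 (1.13). Among 32 translation factors 10 rose, a share of 31.25% against 21.7% of all features, and 6 without spt3 replicate 1. The largest rise was that of GCD6 (0.97), a subunit of the exchange factor of initiation factor eIF2. Cytosolic tRNA synthetases gave 4 rises in 18 genes with spike-ins, a share of 22.2% that was close to the 21.7% of all features. With TMM 12 were higher, where the share of all features was 33.9%. The 4 became 1 without spt3 replicate 1 and 2 without WT replicate 1 or WT replicate 3. Cytosolic ribosomal proteins did not rise with the factors that assemble them. With spike-ins 2 of 137 were higher, RPL41A (0.69) and RPL15B (0.52), and none was lower, with a median of -0.11, whereas TMM called 3 higher and 82 lower with a median of -0.21. RPL15B was called without WT replicate 2 or spt3 replicate 2 and in no other leave-one-out fit, and 4 of the 137 were lower without spt3 replicate 1. Many of these genes are near-identical pairs, between which reads could be split. A PAC element was in 1 of the 137 promoters.

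Regulators of ribosome genes were higher or not called. TOD6, a repressor that binds the PAC element, read 3948, 3611 and 2835 in WT and 14044, 8231 and 8311 in spt3 (log2 1.56, SE 0.21, adjusted p = 3.14e-07). IFH1, a coactivator of ribosomal protein genes, rose by 1.21 (SE 0.21), from 3691, 3949 and 2629 to 10187, 6459 and 7071. FHL1, the partner of IFH1, was 0.79 higher but not called without spt3 replicate 1. DOT6 (0.49), the close relative of TOD6, was higher but not called without spt3 replicate 1 or WT replicate 3. RAP1 (0.72), which binds ribosomal protein promoters, rose, and SFP1, another activator of ribosome genes, stood at 0.31 and was not called. The 4 falls in the same list of 17 stress and growth regulators (7 with TMM) were HAP4, CAT8, MSN4 and GIS1 (-0.86), an activator of genes used when nutrients run out, and its 6 higher calls became 3 without spt3 replicate 1.

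**Figure D4:**
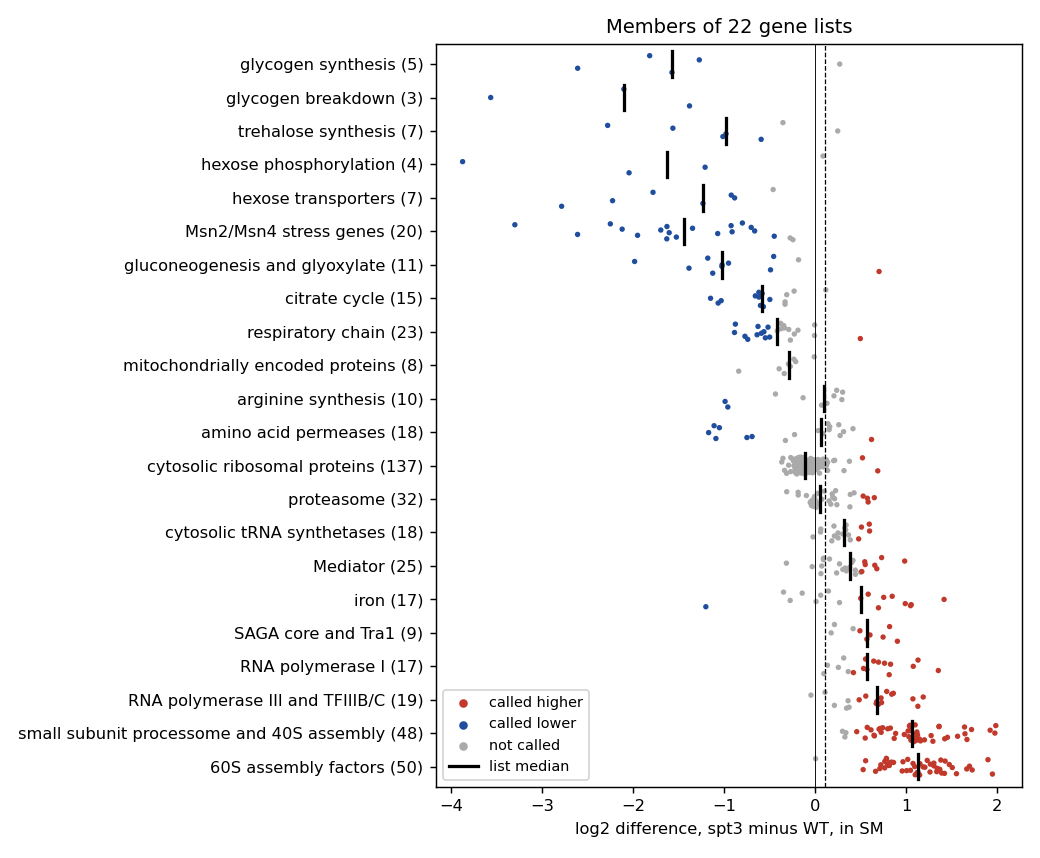
Log2 difference of spt3 minus WT in SM (horizontal axis) for the tested members of 22 gene lists, with the number of members in parentheses; each point is a gene, red if called higher, blue if called lower and grey if not called, and black bars are list medians. The solid line is 0 and the dashed line the median of all features, 0.11. Medians run from -2.10 for glycogen breakdown and -1.43 for Msn2/Msn4 stress genes to 1.13 for 60S assembly factors.

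Genes for the transcription machinery around Spt3 were higher or not called with spike-ins. Within SAGA, SPT8, the partner of Spt3, was 0.43 (adjusted p = 0.0591). Of the core subunits and Tra1, 6 of 9 were higher, with SPT7 (0.91), SPT20 (0.82) and TAF12 (0.75), which hold the complex together, ahead, and 3 of 9 without spt3 replicate 1. In the acetyltransferase part NGG1 (0.77) was the 1 call of 4 (3 with TMM), and GCN5 was 0.20 and ADA2 0.27, neither called. None of the 4 deubiquitylase genes was called with spike-ins, against 1 higher and 2 lower with TMM. TAF7 (1.35), TAF1 (1.03) and TAF2 (0.79) rose among 8 subunits found in TFIID alone, the other main route of TBP to promoters, TAF2 not without spt3 replicate 1. SPT15, which encodes TBP, read 3368, 3865 and 3229 in WT and 6598, 5081 and 5243 in spt3 (log2 0.69, SE 0.18, adjusted p = 0.0027). TOA1, a subunit of TFIIA, which steadies TBP on DNA, rose by 0.79. Of 7 genes for TBP and its regulators 4 were higher, and 2 without spt3 replicate 1 or WT replicate 3. Mediator gave 7 higher calls in 25 genes, GAL11 (0.99) first, a share of 28% against 21.7% of all features, and RNA polymerase II 5 in 12. With TMM 16 Mediator genes, 9 RNA polymerase II genes and 7 of the 8 TFIID genes were higher. With spike-ins and without spt3 replicate 1, the Mediator and RNA polymerase II lists had 1 higher gene each and the TFIID list 2. Mediator had 4 without WT replicate 3 and 12 without spt3 replicate 2, and RNA polymerase II had 1 to 3 without WT replicate 1, WT replicate 3 or spt3 replicate 3.

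Amino acid genes, the set that SM and Gcn4 turn on, changed little as a whole and in both directions. GCN4 mRNA was 0.27 (adjusted p = 0.198), with 29063, 31490 and 25918 in WT and 41914, 29790 and 32617 in spt3. Of 10 arginine synthesis genes 2 fell and none rose with spike-ins, against 4 lower and 2 higher with TMM. With spike-ins the falls were 20% of that list, against 14% of all features. ARG3, ornithine carbamoyltransferase, read 22167, 22914 and 20340 in WT and 12641, 9960 and 10400 in spt3 (log2 -0.99, SE 0.17, adjusted p = 1.89e-05), against a mean of 507 in WT without SM. ARG56, whose product carries out a pair of earlier steps, fell by 0.96, from 50199, 52924 and 46077 to 31486, 22049 and 23304. ARG1, argininosuccinate synthase, was 0.21 and not called. SER3, the first enzyme of serine synthesis, rose by 1.57 (SE 0.18), from 13863, 15384 and 12091 to 50514, 34648 and 37763, while its isozyme gene SER33 was -0.30 and not called. LEU1, isopropylmalate isomerase of leucine synthesis, rose by 1.22 (SE 0.17), from 9713, 10485 and 9323 to 28111, 19893 and 20707. For SER3 and LEU1 all spt3 libraries lay above all WT libraries, and WT without SM had means of 3836 and 21665. LYS20, which opens lysine synthesis, rose by 0.73 and PRO1, which opens proline synthesis, by 0.80. GCV1 (-0.93) and GCV3 (-0.66), subunits of the glycine cleavage system, fell.

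Sulfur genes were called in both directions. SUL2, a sulfate permease, read 2362, 2439 and 2120 in WT and 7082, 4642 and 5173 in spt3 (log2 1.29, SE 0.18). MET4 (0.83), the activator of the sulfur pathway, MET2 (0.78), which makes O-acetylhomoserine, and MET8 (0.66), of siroheme synthesis, rose. SAH1 (0.45), of S-adenosylhomocysteine recycling, was higher but not called without WT replicate 1, WT replicate 3 or spt3 replicate 1. The methionine permease gene MUP3 (-1.01), STR3 (-0.89), which turns cystathionine to homocysteine, the cofactor gene MET28 (-0.86) and SAM1 (-0.60), S-adenosylmethionine synthetase, fell. Over the 22 methionine, cysteine and S-adenosylmethionine genes 4 were higher and 5 lower (8 and 10 with TMM), and without spt3 replicate 1 it was 2 and 9 (2 higher without WT replicate 3). With spike-ins and all libraries the shares were 18.2% higher and 22.7% lower, against 21.7% and 14% of all features. Amino acid permeases leaned down, with 6 falls and 1 higher call in 18 genes (8 and 3 with TMM). AGP3 (-1.17), the proline permease gene PUT4 (-1.11), AGP2 (-1.09), ALP1 (-1.05), AGP1 (-0.75) and BAP3 (-0.69) fell, and TAT1 (0.62), a tyrosine permease gene, was not called without spt3 replicate 1. Among genes that control Gcn4, YIH1 (0.73), an inhibitor of the kinase Gcn2, rose and PCL5 (-0.55), the cyclin that marks Gcn4 for decay, fell. GAT1, an activator of nitrogen catabolism genes, fell by 0.82.

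Other nutrient pathways had single strong changes. IMD2, an IMP dehydrogenase of GTP synthesis, read 1293, 1348 and 1220 in WT and 368, 293 and 330 in spt3 (log2 -1.96, SE 0.18), while IMD3, a close copy, was 0.23 and not called. IMD2 and its copies share sequence, so their split is uncertain. ADE57, which serves a pair of purine steps, rose by 0.83, and GUA1, GMP synthase, by 0.64. Both come from a list of 18 with 5 higher and 1 lower (8 and 5 with TMM), and 3 higher without WT replicate 1 or spt3 replicate 1. With spike-ins and all libraries this list was 27.8% higher and 5.56% lower, against 21.7% and 14% of all features. Iron genes rose in 9 of 17 cases and fell in 1 (2 without spt3 replicate 1 and 3 with TMM). TIS11, which destabilises mRNAs of iron-using proteins, read 1055, 1025 and 1033 in WT and 3185, 2539 and 2598 in spt3 (log2 1.42, SE 0.18). FTR1 (1.06) and FET3 (0.85), the high-affinity uptake pair, SIT1 (1.05), a siderophore transporter gene, and AFT1 (0.99), the iron-sensing activator, rose, and the cell wall protein gene FIT1 (-1.20) fell. The zinc activator gene ZAP1 rose by 0.95 and ZPS1 by 1.35 (SE 0.36), and ZRT2, a zinc transporter gene, fell by 0.69. Of 25 ergosterol genes 7 rose and 1 fell (12 and 4 with TMM), among them ERG3 (1.04), MVD1 (0.97) and UPC2 (0.83), the sterol-sensing activator, with ERG28 (-0.97) the fall, and without WT replicate 1, WT replicate 3 or spt3 replicate 1 it was 4 rises. The ergosterol shares were 28% higher and 4% lower, against 21.7% and 14% of all features. OPI3, the last step of phosphatidylcholine synthesis, fell by 1.32 and INO1, inositol-3-phosphate synthase, by 0.74. PHM8, a phosphatase gene induced by low phosphate, fell by 1.70, and the phosphate activator gene PHO4 rose by 1.03.

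Both groups carry MATa, and the receptor gene of a cells read higher than that of alpha cells in both groups. STE2, the receptor of a cells, had scaled counts of 68665, 76664 and 65292 in WT and 74305, 50610 and 55737 in spt3 (log2 -0.22, not called). STE3, the receptor of alpha cells, had 3159, 3320 and 2808 in WT and 3020, 2374 and 2362 in spt3 (log2 -0.26, not called). Per kilobase of coding length the WT mean scaled counts were 54172 for STE2 and 2191 for STE3. By this measure SAG1, another alpha-specific gene, stood above STE3. None of 4 alpha-specific genes was called with spike-ins, and 1 was lower with TMM. Of 7 a-specific genes 2 fell (28.6% against 14% of all features) and none rose, ASG7 by 1.07 and MFA2 by 0.54. With TMM 5 were lower, and 1 to 3 were lower when libraries were left out in turn. Beside HO, its regulators moved in both directions. ASH1, which represses HO in daughter cells, read 24399, 24301 and 17960 in WT and 16498, 9827 and 10990 in spt3 (log2 -0.84, SE 0.20, adjusted p = 0.00125). SNF2, the ATPase of the SWI/SNF remodeller that opens the HO promoter, rose by 0.83, and SWI5, an activator of HO, was 0.27 and not called. Of 22 meiosis and sporulation genes 3 rose and 4 fell, shares of 13.6% and 18.2% against 21.7% and 14% of all features, and 7 fell without spt3 replicate 1 and 11 with TMM. IME1 (1.27), the master activator, and UME6 (1.00), its partner on DNA, rose, while IME2 (-0.85), the kinase gene downstream, and SPS100 (-1.23), a spore wall gene, fell.

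In the cell cycle group, with 7 higher and 2 lower of 16 (5 lower with TMM, and 4 higher without WT replicate 3 or spt3 replicate 1), CLN2 (0.99), a G1 cyclin, CLB6 (0.93), an S-phase cyclin, RNR1 (1.05), ribonucleotide reductase, and WHI5 (0.85), which holds back G1 exit, rose. The mitotic cyclin gene CLB1 read 8781, 9114 and 7282 in WT and 3709, 2847 and 3004 in spt3 (log2 -1.40, SE 0.19). Several cell surface genes also fell. PRY3, a cell wall protein gene, read 71291, 80257 and 73100 in WT and 24154, 21001 and 18919 in spt3 (log2 -1.81, SE 0.18, adjusted p = 1.33e-10). Among 6 FLO genes FLO10 (-1.25), FLO11 (-0.99) and FLO5 (-0.66) fell, while FLO8 (0.63) was higher but not called without spt3 replicate 1. Of 15 wall mannoprotein genes 6 fell and 1 rose (10 fell without spt3 replicate 1 and 10 with TMM), with CWP1 (-2.03) and PIR3 (-1.69) the largest falls and TIR1 (1.05) the rise. CWP1 read 5417, 6758 and 5513 in WT and 1603, 1284 and 1460 in spt3. Of 22 seripauperins 9 fell and none rose; these and the flocculins are repeated families, so counts for single copies are uncertain.

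Position on the chromosome and the calls went together near chromosome ends (with TMM 66.7% of features 5 to 10 kb from an end and 29.8% beyond 50 kb were lower). Within 20 kb of an end lay 10.2% of the lower calls and 1.75% of the higher calls, against 4.28% of all tested features. The share of lower calls was 22.7% of 66 features within 5 kb of an end, 48% of 75 features from 5 to 10 kb, 30.9% of 139 from 10 to 20 kb and 12.7% of 5781 beyond 50 kb. Examples are the maltose permease gene MAL31 (-2.59) and the protease-like gene YPS5 (-2.28). The unnamed feature YFR057W near the right end of chromosome VI went the other way, and was picked after its values were seen. Its scaled counts were 16.9, 17.7 and 4.40 in WT and 312, 264 and 248 in spt3 (log2 4.38, SE 0.32, adjusted p = 1.98e-13), with means of 19.6 in spt8 and 32.9 in gcn5. Spt3 was first known from effects on Ty retrotransposons, whose rows gave 7 higher calls and 26 falls in 90. The 7 became 1 without spt3 replicate 1, 2 without WT replicate 3 and 15 without spt3 replicate 2, and TMM called 18 higher and 35 lower. Of 31 Ty1 gag rows 20 fell and 1 rose, with a median of -0.96, and their summed scaled count was 93712, 94687 and 70424 in WT and 62433, 35692 and 42133 in spt3. Of 29 Ty1 gag-pol rows 3 fell and 3 rose, with a median of 0.07. The copies are near-identical and gag lies inside gag-pol, so the split of reads between these rows is uncertain.

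Set directly against the spt8 deletion in SM, the count of features that differed depended on the scaling. With spike-ins 72 were higher in spt3 (1.1%) and 157 lower (2.39%), whereas TMM called 1107 higher (16.9%) and 936 lower (14.3%), so rises were 31.4% of the calls with spike-ins and 54.2% with TMM. The count of 229 in either direction (3.49%) was 51 without spt8 replicate 3, 97 without spt8 replicate 2, 127 without spt3 replicate 2 and 142 without spt3 replicate 3. HXK1 was lower in spt3 than in spt8, whose mean was 2607, with a log2 difference of -1.31 (SE 0.20, adjusted p = 0.000102), and the difference was -1.57 for SOL4 and -1.44 for GSY1. In the lists, 4 of 5 glycogen synthesis genes, 3 of 4 hexose kinases and 4 of 20 Msn2/Msn4 genes were lower in spt3, and 9 of 48 small subunit and 14 of 50 large subunit assembly factors were higher (45 and 48 with TMM). HO was 1.11 higher in spt3 than in spt8 (SE 0.21, adjusted p = 0.00128). For HXT7 the difference was -0.14 (SE 0.18, adjusted p = 0.832) and for HSP12 -0.16 (SE 0.21, adjusted p = 0.841), which does not show that the strains act alike. YFR057W was 3.82 higher in spt3.

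Against the gcn5 deletion 2449 features were higher in spt3 (37.3%) and 638 lower (9.72%). TMM called 2208 higher (33.6%) and 2009 lower (30.6%), and the median over all features was 0.31 with spike-ins and 0.02 with TMM. The count of 3087 in either direction (47%) was 4799 without gcn5 replicate 3. Genes lower in spt3 included 6 of 7 hexose transporters, 10 of 20 Msn2/Msn4 genes and 6 of 11 gluconeogenesis genes. The log2 difference from gcn5 was -3.30 for FMP48, -2.46 for HXK1, -2.48 for HXT3, -2.39 for HSP26 and -2.09 for HAP4, all called. GSY1 did not pass the test (0.14, SE 0.20, adjusted p = 0.562), with a mean of 1046 in gcn5 and 1155 in spt3, both below the 7040 of WT. ASG7 was 2.29 higher in spt3, and of 137 ribosomal protein genes 57 were higher and none lower with spike-ins, against 40 higher and 27 lower with TMM. Of all features, 37.3% were higher with spike-ins and 33.6% with TMM, so both higher counts lie near the general share. The arginine gene ARG3 stood at a log2 difference of -1.59 from gcn5, whose mean was 33123. By the column names of the deposited table the spt3 and WT libraries belong to 1 named set and the spt8 and gcn5 libraries to another, so set and genotype cannot be told apart in these 2 comparisons.

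**Figure D5:**
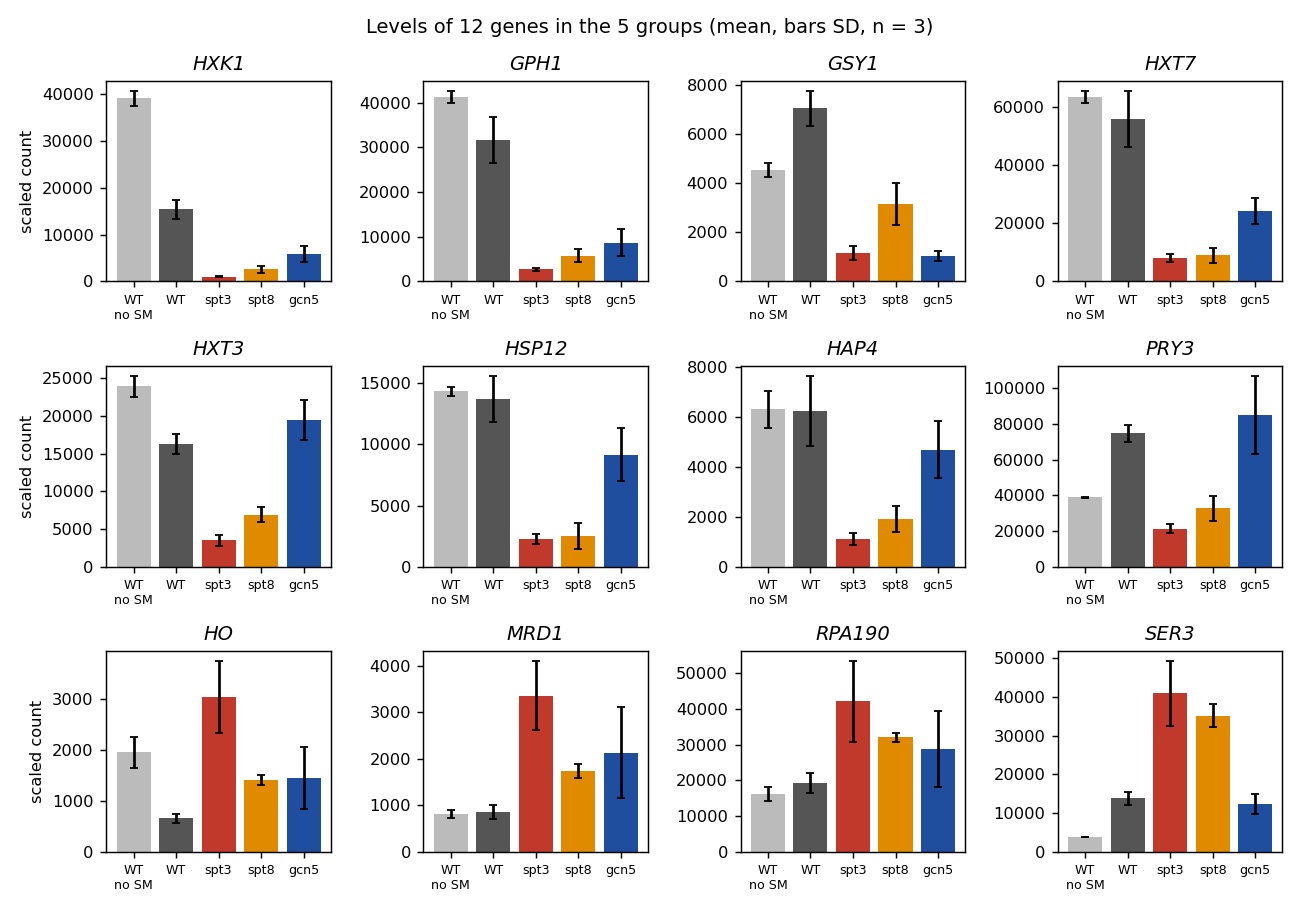
Mean scaled count (vertical axes from 0) of 12 genes in WT without SM, and in WT, spt3, spt8 and gcn5 with SM; error bars are SD, n = 3 libraries each. In spt3 the first 8 genes are below WT in SM and the last 4 above it, while GSY1 is as low in gcn5 as in spt3 and PRY3 in gcn5 is near WT.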

How the data were processed

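The RNA-seq reads were processed by the authors, who deposited whole-number read counts per gene and per ERCC spike-in for 15 libraries; per the submitters' processing notes the yeast build was sacCer3. For counting, the use of strand and of reads with several matches is not given in the sources. All spike-in values were even, against 50.5% of the yeast values. Columns were assigned to samples by their library names, and no column was left without a sample. Gene symbols and coordinates came from the RefSeq R64 annotation, which matched 6008 of 6692 features by systematic name; the 684 others held 0.72% of yeast counts.

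Size factors were the median of ratios over the 74 spike-ins seen in every library. Counts were fitted in edgeR 4.0.16 (R 4.3.3, limma 3.58.1) by the quasi-likelihood test, with all 5 groups in a fit, edgeR's filter on low counts and Benjamini-Hochberg adjustment. The common coefficient of variation between replicates was 16.1% with spike-in scaling and 7.9% with TMM. Scripts were tested on simulated data, whose spread between replicates was taken from the TMM fit. That spread is smaller than with spike-in scaling, so the simulation does not measure the error rate of the spike-in calls. DESeq2 1.42.0, TMM, other filters, other sets of samples, a replicate block and each left-out library were alternatives. Replicate numbers are shared between groups, and the main fit did not treat them as pairs.

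The gene lists, which hold 74 groups, and the genes of interest were chosen with earlier results of these data known. Named genes were SPT3 and its neighbours, the 12 largest rises and falls among called genes with a symbol, a mean CPM of at least 10 and groups that do not overlap, plus at most 8 called members per list. Isozymes, partners and other genes given as not called, and YFR052C-A, YFR057W and PRY3, were picked after their values were seen. A further list is not reported here. Promoter windows are 250 bases before the coding start.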

Additional observations from a re-analysis of the deposited data

How the results depend on the processing

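The counts of calls moved with the scaling and with single libraries. With spike-ins 1426 features were higher and 919 lower; TMM gave 2223 and 2061, the median of ratios over yeast genes 2073 and 2223, and DESeq2 with its own scaling 2106 and 2263. TMM on the 2 groups alone gave 2259 and 2260. DESeq2 with spike-ins (1447 and 947), no filter on low counts, a mean count of 100 or more and a spike-in fit of the 2 groups alone left both counts within 1.5 times. Leaving out 1 library gave 753 to 1608 higher and 686 to 1059 lower with spike-ins, and 1900 to 2124 higher with TMM. Lower calls with TMM were 1946, 1898 and 1973 without WT replicates 1, 2 and 3 and 1833, 1933 and 1899 without spt3 replicates 1, 2 and 3. The 2 TMM alternatives beyond TMM itself, with the 2 groups alone or a replicate block, and the TMM fits without 1 library were added after seeing the data. Replicate numbers gave correlations of deviations of 0.45, -0.28 and 0.16 between same-numbered libraries, and not every library correlated best with its own number. The deviations carry the scaling of each whole library, so they cannot settle whether the numbers mark pairs. The replicate block gave 1229 higher and 818 lower with spike-ins, and 2168 and 2012 with TMM. For spt3 against spt8, 229 calls became 2043 with TMM, 2044 with the median of ratios, 2252 with DESeq2's own scaling, 591 with the 2 groups alone, 2574 with both TMM and the 2 groups alone, 1826 with TMM and the block, and 51 to 184 with 1 library left out. For spt3 against gcn5, 3087 became 1811 with the 2 groups alone and 2295 to 4799 with 1 library left out. The causes were not tested. Of 208 named genes that were called, 18 lost the call under at least 1 alternative and 0 reversed. HXK2, not called, went from 0.088 to -0.019 with TMM, -0.053 with the median of ratios or DESeq2's own scaling, -0.037 with TMM on the 2 groups, -0.019 with TMM and the block, and -0.061 to 0.18 with 1 library left out; with TMM and WT replicates 1, 2 and 3 left out it was -0.046, -0.037 and -0.0042, and with spt3 replicates 1, 2 and 3 left out -0.029, -0.0080 and -0.020.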
